A study of Mus musculus with 11 samples.

Results

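The genes described here are 10 components of the Wnt/β-catenin pathway measured in mouse mammary epithelium. They comprise 6 feedback genes that the pathway switches on in many tissues (Axin2, Nkd1, Notum, Rnf43, Znrf3 and Sp5) and the 4 genes of the TCF/LEF family (Lef1, Tcf7, Tcf7l1 and Tcf7l2). The genes were listed by name, and every array probe carrying a RefSeq accession of one of them was used, which gave 15 of the 55681 probes and 10 of the 20145 genes with a symbol on the array.

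The arrays compared basal and luminal cells of mammary outgrowths that carried a lentiviral short hairpin RNA against Ror2 (shROR2) or against luciferase (shLUC), a control sequence foreign to the mouse. Mammary epithelial cells were infected in suspension and resuspended in Matrigel for injection, and the basal and luminal populations of the outgrowths were later sorted on the surface proteins CD24 and CD29. The groups were basal shROR2 (3 arrays), basal shLUC (3), luminal shROR2 (2) and luminal shLUC (3). A further sample of luminal shROR2 cells was not used here. All groups share infection, transplantation, sorting and RNA amplification. The labels describe the samples as biological triplicates, name a single hairpin target beside luciferase, and give neither the strain or age of the animals nor whether outgrowths were pooled. In such sorted samples, fewer cells of a type and less RNA per cell cannot be told apart.

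In the absence of a Wnt signal, a destruction complex built on Axin and Apc marks β-catenin for degradation. A Wnt ligand bound to Frizzled and Lrp receptors stops that complex, and β-catenin enters the nucleus and binds TCF/LEF proteins, which recognise a short CTTTGA-type DNA element and otherwise hold their targets silent together with Groucho/TLE corepressors. Among the targets are inhibitors of the pathway itself, so that their transcript levels are widely read as a gauge of signalling. In the mammary gland, Wnt-responsive cells have been mapped mainly to the basal layer, and Ror2 is a receptor best known for Wnt signalling that does not pass through β-catenin.

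Promoter sequences were available for 8 of the 10 genes, as 14 windows of 300 bases (250 before to 50 after a RefSeq transcription start, build GRCm38.p6). They are shown for Nkd1, Tcf7 and Axin2, the fitted genes with the largest estimated changes between the cell layers. Sp5 is shown as the single gene with a TCF-type element in its window. The Axin2 estimate rests on luminal signals too dim to measure, so Axin2 is not shown to differ more than Tcf7l1. The search covered the exact letters CTTTGAT and CTTTGAA on both strands, and capitals mark a match.
Nkd1 promoter (chr8:88527383-88527682, + strand): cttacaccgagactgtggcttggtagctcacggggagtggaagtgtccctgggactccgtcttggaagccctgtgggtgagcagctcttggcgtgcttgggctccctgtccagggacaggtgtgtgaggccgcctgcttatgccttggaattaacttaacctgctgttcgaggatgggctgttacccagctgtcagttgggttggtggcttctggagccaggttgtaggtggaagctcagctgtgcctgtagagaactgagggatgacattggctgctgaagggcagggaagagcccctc
Tcf7 promoter (chr11:52282965-52283264, - strand): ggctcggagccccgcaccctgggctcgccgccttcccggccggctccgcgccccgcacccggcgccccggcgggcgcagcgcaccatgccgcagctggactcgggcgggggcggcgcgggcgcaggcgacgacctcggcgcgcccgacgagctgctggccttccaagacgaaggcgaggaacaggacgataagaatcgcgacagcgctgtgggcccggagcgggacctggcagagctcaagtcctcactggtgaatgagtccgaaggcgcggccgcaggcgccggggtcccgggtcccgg
Axin2 promoter (chr11:108920099-108920398, + strand): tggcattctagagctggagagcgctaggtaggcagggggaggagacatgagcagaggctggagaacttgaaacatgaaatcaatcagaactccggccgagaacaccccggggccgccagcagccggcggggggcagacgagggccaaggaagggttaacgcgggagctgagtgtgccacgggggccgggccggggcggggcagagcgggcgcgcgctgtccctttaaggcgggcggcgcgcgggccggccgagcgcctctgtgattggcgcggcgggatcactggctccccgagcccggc
Sp5 promoter (chr2:70474673-70474972, + strand): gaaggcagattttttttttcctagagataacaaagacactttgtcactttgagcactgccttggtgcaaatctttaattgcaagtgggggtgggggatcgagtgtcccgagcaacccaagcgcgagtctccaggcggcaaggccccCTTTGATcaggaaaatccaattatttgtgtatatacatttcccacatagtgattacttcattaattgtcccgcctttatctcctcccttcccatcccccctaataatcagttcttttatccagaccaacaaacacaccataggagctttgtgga
Of the 14 windows, 1 held a match, a CTTTGAT on the gene's strand of Sp5 that began 104 bases before the transcription start. Either form occurred in 8.65% of 32851 mouse promoter windows of the same length, CTTTGAT in 3.73% and CTTTGAA in 5.14%. The windows shown for Nkd1, Tcf7 and Axin2 held neither set of letters, which describes these 300 bases only. The Tcf7 window holds a start codon (in atgccgcagctggactcg) before the transcription start used, with no stop codon in its frame to the window's end. Much of this window thus reads as coding sequence, and sequence upstream of it was not searched. The other Tcf7 window (chr11:52282546-52282845), which lies downstream, held neither set of letters.

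Each array reported a background-subtracted intensity per probe, here called the signal, and marked whether it lay well above the local background. Between 52.8% and 59.5% of probes were well above background, and the lowest such signal on an array was between 10.8 and 14.2, so signals near 3 to 10 are at the limit of detection. Replicate arrays correlated at 0.941 to 0.953 in basal shROR2, lower than the 0.976 to 0.982 in basal shLUC, the 0.983 in luminal shROR2 and the 0.981 to 0.983 in luminal shLUC. The sorted layers carried most of their markers. The summed signal of 8 myoepithelial genes was 168400 to 173600 in basal shROR2 and 175800 to 197000 in basal shLUC, against 13330 to 14100 in luminal shROR2 and 12700 to 13570 in luminal shLUC. Of these 8, Trp63 did not pass between the layers, averaging 12800 in basal shROR2 against 11360 in luminal shROR2 (adjusted p = 0.17) and 12390 in basal shLUC against 10670 in luminal shLUC (adjusted p = 0.278), and it made up most of the luminal sum. The summed signal of 8 luminal genes was 8203 to 10670 in basal shROR2 and 7211 to 7641 in basal shLUC, against 52340 to 57040 in luminal shROR2 and 49160 to 51730 in luminal shLUC. The single Ror2 probe lay near background, with signals of 16.8, 3.03 and 6.93 in basal shROR2 against 11.1, 12.1 and 10.1 in basal shLUC, and of 3.54 and 8.47 in luminal shROR2 against 3.14, 3.44 and 3.48 in luminal shLUC. It was well above background on 1 array, basal shROR2 replicate 1, so the knockdown itself could not be read from these signals, and the basal groups overlapped (exact permutation p = 0.7, two-sided).

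In basal cells 8 of the 10 genes were well above background on all shROR2 arrays and 7 on all shLUC arrays, against 6 in luminal shROR2 and 6 in luminal shLUC. The 4 genes that no luminal array detected were Axin2, Lef1, Nkd1 and Sp5, and Lef1 was detected on no array at all. The fit across all genes took only probes that at least 3 of the 11 arrays measured well above background. This left 8 of the 10 genes in the fit and 11 of the 15 probes, and Axin2 and Nkd1 passed only through their basal arrays. Lef1 and Sp5 did not pass and were compared by exact permutation of arrays, where the smallest possible p is 0.1.

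**Figure D1:**
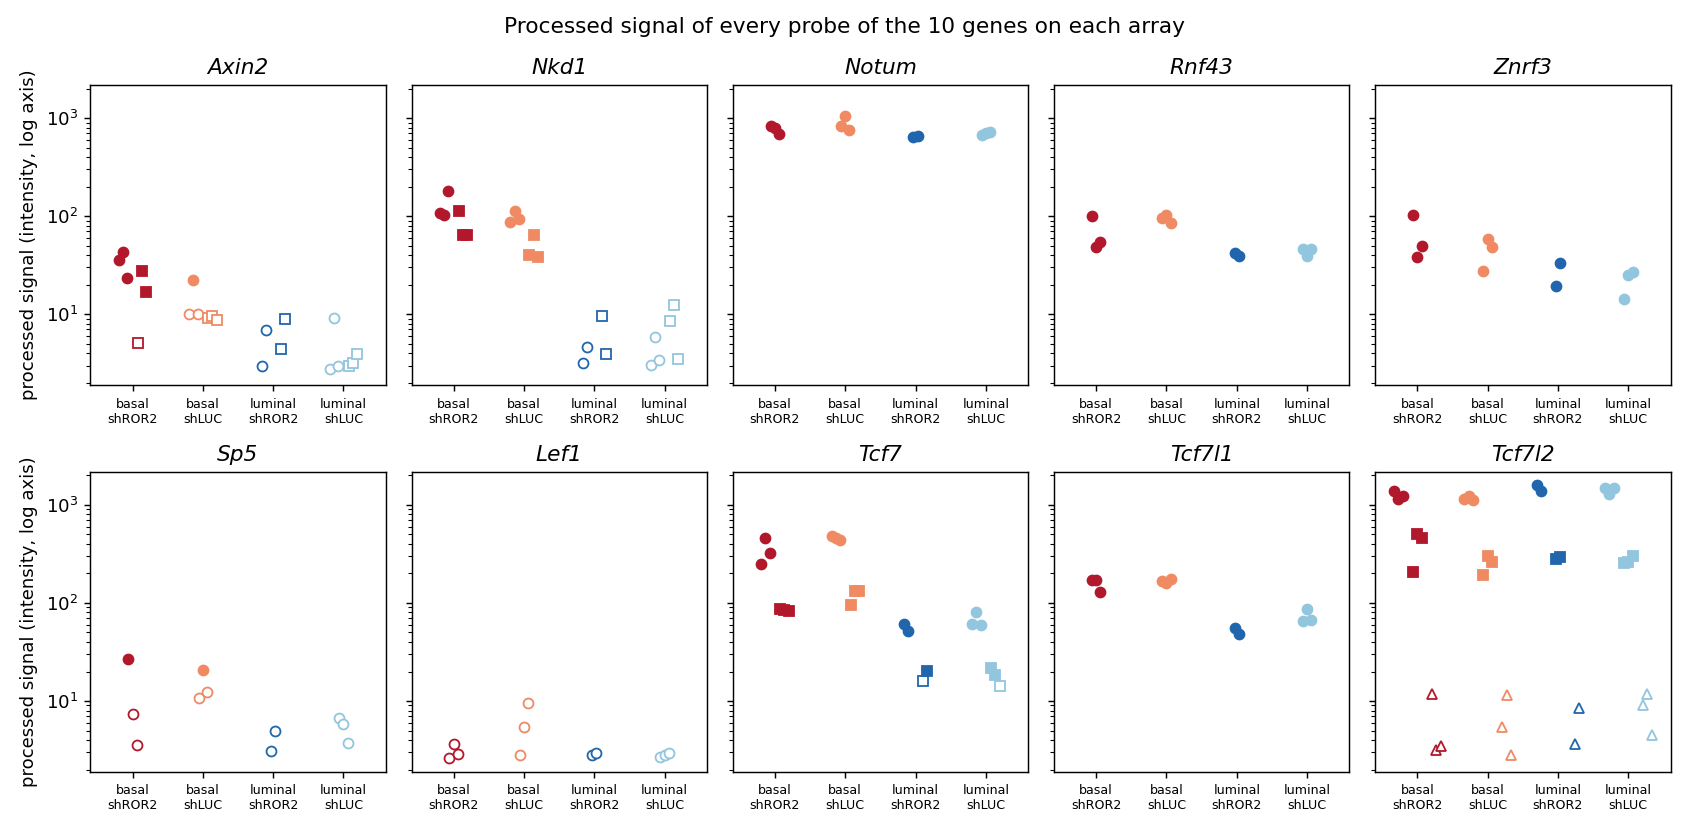
Signal of all 15 probes of the 10 genes on the 11 arrays, on a log axis, with 1 panel per gene and the groups in the order basal shROR2, basal shLUC, luminal shROR2 and luminal shLUC. Each point is 1 array, marker shapes separate the probes of a gene, and filled points were well above background. Nkd1 stands at 86.5 to 180 on its stronger probe in basal cells and is not well above background in luminal cells, whereas Lef1 is open throughout.

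Basal cells had higher signals of Nkd1, Tcf7 and Tcf7l1 than luminal cells in shROR2 and in shLUC outgrowths. Rnf43 was called higher in basal cells of shLUC outgrowths, and Axin2 in basal cells of shROR2 outgrowths. None of the 8 fitted genes was called lower in basal cells. The fit called 4 of the 8 genes in each comparison, all higher. Nkd1 is in both counts and Axin2 in the shROR2 count, and since the filter let them in only through basal arrays, where they are high, nothing is read from these counts. Of all features, 22.9% were called in shROR2 outgrowths (10.6% of features higher) and 26.9% in shLUC outgrowths (13.8% higher). Leaving out luminal shROR2 replicate 1 or 2 lowered the number of features called in shROR2 outgrowths to 3770 and 3958, against 6728 with all arrays. A call here is an adjusted p under 0.05 from limma over 29429 features, and changes are log2 of basal over luminal with the standard error.

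Nkd1 encodes naked cuticle 1, which binds Dishevelled and dampens the pathway. Its stronger probe gave 107, 103 and 180 in basal shROR2 and 86.5, 113 and 94.3 in basal shLUC, against 3.21 and 4.68 in luminal shROR2 and 3.05, 5.85 and 3.42 in luminal shLUC. Every basal array was well above background and no luminal array was. Because the luminal signal has only an upper bound, the fold is a bound too, and the adjusted p is that of a gene that entered the fit through its basal arrays. The basal level was at least 9.50-fold higher in shROR2 outgrowths (adjusted p = 1.22e-05) and at least 7.04-fold higher in shLUC outgrowths (adjusted p = 7.64e-06). The second Nkd1 probe gave 112.5, 63.7 and 64.2 in basal shROR2 and 40.7, 64.9 and 38.3 in basal shLUC, and again no luminal array was well above background. On that probe the basal level was at least 5.83-fold higher in shROR2 (adjusted p = 0.00147) and at least 3.37-fold higher in shLUC outgrowths (adjusted p = 0.00421). Both slides held basal arrays with and luminal arrays without a detected signal.

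Axin2 encodes a scaffold of the destruction complex and is the most widely used transcriptional reporter of β-catenin signalling. Its stronger probe gave 36.1, 43.6 and 23.4 in basal shROR2 and 10.1, 22.4 and 10.0 in basal shLUC, against 2.97 and 6.85 in luminal shROR2 and 2.75, 9.15 and 2.98 in luminal shLUC. The 3 basal shROR2 arrays and 1 basal shLUC array were well above background, and no luminal array was. In shROR2 outgrowths the basal signal was at least 2.51-fold higher (adjusted p = 0.00743, of a gene that entered the fit through its basal arrays), and without luminal shROR2 replicate 1 the adjusted p was 0.0787 (range over 23 alternatives 0.000691 to 0.0787). In shLUC outgrowths the difference did not pass (adjusted p = 0.0581), although all 3 basal arrays lay above the luminal ones, and its size was not measured, with 1 of 6 arrays above background. With the slide as a block the adjusted p was 0.0116 and without luminal shLUC replicate 2 it was 0.0133, in a range of 0.00543 to 0.299 over 23 alternatives of which 4 gave a call. The weaker Axin2 probe did not pass the filter. It gave 5.04, 27.5 and 16.8 in basal shROR2 and 9.06, 9.60 and 8.64 in basal shLUC, against 4.46 and 8.85 in luminal shROR2 and 2.97, 3.22 and 3.90 in luminal shLUC, with 2 arrays well above background, both basal shROR2.

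Rnf43 and Znrf3 are sister E3 ubiquitin ligases that remove Frizzled receptors from the cell surface. Rnf43 gave 101, 48.1 and 54.9 in basal shROR2 and 96.1, 102 and 84.6 in basal shLUC, against 41.7 and 39.2 in luminal shROR2 and 46.0, 39.3 and 46.0 in luminal shLUC. All arrays were well above background and no basal array overlapped a luminal one of the same hairpin. Here and below, overlap is judged on log2 signals scaled to each array's 75th percentile. The change was 0.72 ± 0.28 in shROR2 (adjusted p = 0.0948) and 1.04 ± 0.25 in shLUC outgrowths (adjusted p = 0.013). In shROR2 outgrowths it was 0.94 and called without basal shROR2 replicate 2 (adjusted p = 0.0282, range over 24 alternatives 0.0282 to 0.315). Znrf3 gave 102, 38.5 and 49.9 in basal shROR2 and 27.4, 59.2 and 48.8 in basal shLUC, against 19.2 and 33.7 in luminal shROR2 and 14.2, 24.9 and 26.9 in luminal shLUC. Its basal arrays lay above the luminal arrays of the same hairpin, but the changes of 1.24 ± 0.49 in shROR2 (adjusted p = 0.105) and 0.96 ± 0.44 in shLUC outgrowths (adjusted p = 0.145) did not pass. A lack of overlap alone was frequent, at 45.6% of features in the shROR2 and 52.2% in the shLUC comparison.

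Notum, a secreted enzyme that strips the lipid from Wnt ligands, was detected on every array. It gave 830, 803 and 682 in basal shROR2 and 827, 1065 and 759 in basal shLUC, against 636 and 656 in luminal shROR2 and 672, 703 and 716 in luminal shLUC. The changes of 0.31 ± 0.13 in shROR2 (adjusted p = 0.137) and 0.27 ± 0.12 in shLUC outgrowths (adjusted p = 0.136) were small and did not pass. Sp5, a zinc-finger repressor that acts on Wnt target promoters, gave 26.6, 7.46 and 3.53 in basal shROR2 and 10.6, 20.8 and 12.4 in basal shLUC, against 3.10 and 4.97 in luminal shROR2 and 6.67, 5.79 and 3.75 in luminal shLUC. It was well above background on 2 arrays, basal shROR2 replicate 1 and basal shLUC replicate 2. The basal and luminal arrays overlapped in shROR2 outgrowths (exact permutation p = 0.4) and not in shLUC outgrowths (exact permutation p = 0.1, at least 1.01-fold higher). The signal of Sp5, the gene with the CTTTGAT in its window, was thus too dim for its layers to be told apart in this way.

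**Figure D2:**
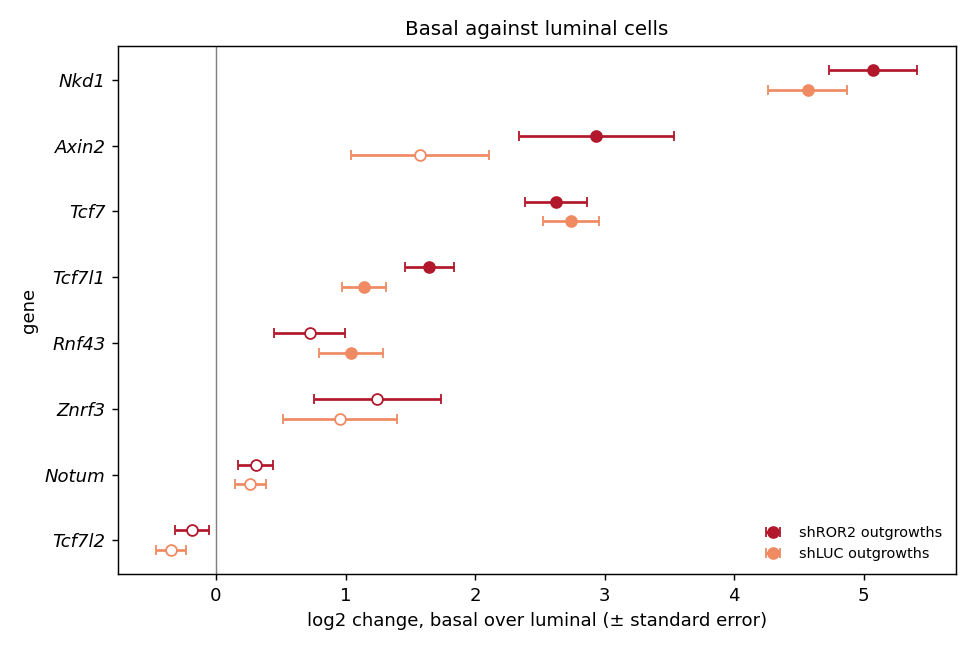
Log2 change of basal over luminal cells, with its standard error, for the 8 genes in the fit, in shROR2 (3 basal and 2 luminal arrays) and shLUC outgrowths (3 and 3). Filled points had an adjusted p under 0.05. Nkd1, Tcf7 and Tcf7l1 are filled for both hairpins, and Tcf7l2 is the gene whose changes, -0.19 in shROR2 and -0.35 in shLUC, lie below 0. The luminal signals of Nkd1 and Axin2 were not well above background, so the size of their changes is not measured.

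Of the TCF/LEF genes, Tcf7, which encodes TCF1 and is itself a frequent Wnt target, was higher in basal cells. Its stronger probe gave 253, 457 and 326 in basal shROR2 and 483, 463 and 444 in basal shLUC, against 61.4 and 51.7 in luminal shROR2 and 61.5, 80.4 and 59.1 in luminal shLUC. No basal array came near a luminal one. The change was 2.63 ± 0.24 in shROR2 (adjusted p = 7.86e-05) and 2.74 ± 0.21 in shLUC outgrowths (adjusted p = 2.09e-05). The second Tcf7 probe gave 2.28 (adjusted p = 0.000129) and 2.66 (adjusted p = 1.74e-05) for the same comparisons, and within the slides the stronger probe gave 2.32 and 3.14 in shROR2 and 2.88 and 2.58 in shLUC outgrowths.

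Tcf7l1 encodes TCF3, the family member known mostly as a repressor and as a gene of epithelial progenitors. It gave 171, 173 and 128 in basal shROR2 and 166, 161 and 177 in basal shLUC, against 55.7 and 47.8 in luminal shROR2 and 65.5, 87.6 and 67.2 in luminal shLUC. The basal arrays were separate from the luminal ones for both hairpins, by 1.65 ± 0.19 in shROR2 (adjusted p = 0.000303) and 1.14 ± 0.17 in shLUC outgrowths (adjusted p = 0.00106). Within the slides the changes were 1.51 and 1.85 in shROR2 and 1.36 and 0.90 in shLUC outgrowths.

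Tcf7l2 encodes TCF4, the main β-catenin partner in intestinal epithelium, and was detected on every array by 2 of its 3 probes. The strongest probe gave 1402, 1152 and 1242 in basal shROR2 and 1147, 1240 and 1115 in basal shLUC, against 1585 and 1396 in luminal shROR2 and 1476, 1306 and 1485 in luminal shLUC. The change was -0.19 ± 0.13 in shROR2 (adjusted p = 0.35) and -0.35 ± 0.11 in shLUC outgrowths (adjusted p = 0.054). The shLUC value passed in 10 of 24 alternatives, among them without basal shROR2 replicate 1 (adjusted p = 0.0409) or replicate 2 (adjusted p = 0.0306), with a range of 0.00543 to 0.22. The middle probe gave 0.40 in shROR2 (adjusted p = 0.45) and -0.20 in shLUC outgrowths (adjusted p = 0.68), so the probes differed in sign in shROR2 outgrowths, and the third probe was dim everywhere.

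Lef1, the lymphoid enhancer factor that also marks embryonic mammary mesenchyme, gave 2.61, 3.65 and 2.87 in basal shROR2 and 2.79, 5.47 and 9.49 in basal shLUC, against 2.79 and 2.97 in luminal shROR2 and 2.66, 2.83 and 2.96 in luminal shLUC. None of these signals was well above background, so no fold is given. Tcf7 and Lef1 are also T cell genes. Of 10 T cell markers, Cd3d, Cd3g, Cd8a, Cd2 and Trat1 were well above background on no array. The summed signal of all 10 was 1166 to 1497 in basal shROR2 and 1105 to 1213 in basal shLUC, against 1202 to 1287 in luminal shROR2 and 1217 to 1265 in luminal shLUC. It thus overlapped between the layers of shROR2 outgrowths and was slightly lower in the basal cells of shLUC outgrowths. Of the 5 tested, none was called between the layers of shROR2 outgrowths, and Cd5 (higher in basal cells) and Il7r (lower) were called in shLUC outgrowths.

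Most markers of fibroblasts and endothelial cells were higher in the basal layer. Of all features, 10.6% were called higher in basal cells of shROR2 and 13.8% of shLUC outgrowths. Of 8 fibroblast markers 7 were tested, and 5 were called higher in basal cells of shROR2 and 7 of shLUC outgrowths, with summed signals of 6349 to 8146 in basal shROR2 and 6834 to 7468 in basal shLUC, against 1285 to 1301 in luminal shROR2 and 769.6 to 780.5 in luminal shLUC. Pdgfra was well above background on no array of basal shROR2, and Dpt on none of basal shLUC. Pdgfra, Lum and Dpt were well above background on no luminal array, so on these probes any that entered the fit did so only through basal arrays. Of 8 endothelial markers 6 were called higher in basal cells for each hairpin, with summed signals of 4818 to 5567 in basal shROR2 and 2551 to 3107 in basal shLUC, against 1662 to 1719 in luminal shROR2 and 1315 to 1399 in luminal shLUC. Of 5 pericyte markers 4 were tested, and for each hairpin Rgs5 and Pdgfrb were called higher and Notch3 lower in basal cells. Their sums were 643.9 to 873.5 in basal shROR2 and 445.3 to 532.1 in basal shLUC, against 469.7 to 537.2 in luminal shROR2 and 345.6 to 375.6 in luminal shLUC. Of 5 adipocyte markers 3 were tested, and 1 was called higher in basal cells for each hairpin, with sums given further below. Other leukocyte markers went the other way. Of 7 tested, 2 were called lower in basal cells of shROR2 and 4 of shLUC outgrowths, with none higher. The part of any of these cells in the higher Nkd1, Axin2, Tcf7, Tcf7l1 and Rnf43 signals was not tested.

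Other genes of the pathway were read from lists. Of 35 further Wnt targets 28 were tested, and in shROR2 outgrowths 11 were higher and 3 lower in basal cells with a median change of 0.30, and in shLUC outgrowths 12 were higher and 4 lower with a median of 0.62. The median over all features was -0.08 in shROR2 and -0.06 in shLUC outgrowths. Of all features, 22.9% were called in shROR2 outgrowths (10.6% higher) and 26.9% in shLUC outgrowths (13.8% higher). Wif1, Lgr5, Dact1 and Ccn4 were detected on no luminal array and passed the filter only through basal arrays, where they are high. Nothing is therefore read from these counts and medians. Wif1, a secreted Wnt inhibitor, gave 455, 440.5 and 534 in basal shROR2 and 480, 590.5 and 541 in basal shLUC, against 2.55 to 2.87 on the 5 luminal arrays, and was at least 35.9-fold higher in shROR2 and at least 38.7-fold higher in shLUC outgrowths. Lgr5, an R-spondin receptor and stem cell marker of several epithelia, gave 164, 154 and 184 in basal shROR2 and 205, 217 and 221 in basal shLUC, and was detected on no luminal array. It was at least 12.6-fold higher in shROR2 and at least 15.5-fold higher in shLUC outgrowths. Dact1, a Dishevelled antagonist, and Ccn4, a secreted matricellular protein, had bounds of 8.70-fold and 9.28-fold in shROR2 and 6.33-fold and 9.77-fold in shLUC outgrowths.

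Not every target on that list was higher in the basal layer. The homeobox gene Msx2 was lower in basal cells, by a log2 change of -5.14 ± 0.91 in shROR2 (adjusted p = 0.00356) and -4.51 ± 0.81 in shLUC outgrowths (adjusted p = 0.00336). The transcription factor Jun changed by -1.14 ± 0.13 in shROR2 and -1.20 ± 0.11 in shLUC outgrowths (adjusted p = 0.000257 and 6.42e-05). Irx3 changed by -0.65 ± 0.14 in shROR2 (adjusted p = 0.0103) and -0.49 ± 0.13 in shLUC outgrowths (adjusted p = 0.0194), a shLUC call lost without luminal shLUC replicate 2 or 3 or basal shLUC replicate 2 or 3 (adjusted p 0.0515 to 0.0747). Ccn5 gave -0.95 ± 0.51 in shROR2 (adjusted p = 0.228) and -1.44 ± 0.46 in shLUC outgrowths (adjusted p = 0.0471). Its shLUC call was lost in 13 of 24 alternatives, among them without any 1 array other than basal shROR2 replicate 1 or 3 (adjusted p 0.0562 to 0.141).

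Receptors and their ligands formed a further list. Of 18 R-spondin, Lgr, Frizzled and Lrp genes 15 were tested. For each hairpin 8 were higher and 1 lower in basal cells, with medians of 1.04 in shROR2 and 0.94 in shLUC outgrowths. Among all features, 10.6% were called higher and 12.3% lower in shROR2, and 13.8% and 13% in shLUC outgrowths. Fzd9 was detected on no luminal array and passed the filter only through basal arrays, so nothing is read from these counts and medians. Lgr4, an R-spondin receptor, averaged 472 in basal shROR2 against 96.9 in luminal shROR2 (change 2.33 ± 0.13) and 739 in basal shLUC against 101 in luminal shLUC (2.80 ± 0.12). Fzd7 changed by 2.33 ± 0.23 in shROR2 and 2.28 ± 0.20 in shLUC outgrowths, Fzd1 by 1.45 ± 0.13 and 1.88 ± 0.12, and Fzd9 was at least 2.43-fold and at least 3.16-fold higher. The 1 lower gene was the ligand Rspo1, at -2.86 ± 0.41 in shROR2 and -4.33 ± 0.36 in shLUC outgrowths, with signals of 38.6, 94.1 and 36.5 in basal shROR2 against 383 and 384 in luminal shROR2, and of 23.0, 37.5 and 16.6 in basal shLUC against 459, 520 and 432 in luminal shLUC.

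The 20 genes of the destruction complex and Dishevelled were all tested. In shROR2 outgrowths 1 was higher and 6 lower with a median of -0.35, where 22.9% of all features were called. In shLUC outgrowths 1 was higher and 4 lower with a median of -0.12, a share close to the 26.9% of all features called. The higher gene was Csnk1d, a casein kinase, and Frat2, which binds Gsk3, changed by -1.17 ± 0.16 in shROR2 and -1.87 ± 0.14 in shLUC outgrowths. Rnf146, an E3 ligase that targets Axin, changed by -1.28 ± 0.30 and -1.16 ± 0.27, and the kinase Gsk3b by -0.67 ± 0.15 and -0.64 ± 0.13. The shLUC value of Gsk3b was -0.40 and not called with the mean over its probes (adjusted p = 0.152, range over 24 alternatives 0.000189 to 0.152). The Dishevelled gene Dvl1 changed by -0.60 in shLUC outgrowths (adjusted p = 0.0177), a call held in 21 of 24 alternatives. It was lost without luminal shLUC replicate 1 or 2 or basal shLUC replicate 2 (adjusted p 0.0561 to 0.0676). Of 24 nuclear partners and repressors 23 were tested, 5 higher and 2 lower in shROR2 and 6 higher and 3 lower in shLUC outgrowths. Beside the 22.9% and 26.9% of all features called, these counts are not read as particular to the list. Among the higher ones, the corepressors Tle1 (1.41 ± 0.18 in shROR2 and 1.64 ± 0.16 in shLUC) and Tle3 (0.94 ± 0.11 and 1.63 ± 0.10) were called for both hairpins, as was Pygo1, a cofactor that joins β-catenin through Bcl9 (1.94 ± 0.32 and 1.21 ± 0.29). The shLUC call of Pygo1 was lost without luminal shLUC replicate 1 or 3 or basal shLUC replicate 3 (adjusted p 0.0504 to 0.0532). The lower genes of shLUC outgrowths were Bcl9l, a β-catenin cofactor (-0.64 ± 0.16, adjusted p = 0.0175), and the Groucho family members Tle6 (-0.88 ± 0.28, adjusted p = 0.0489) and Tle5 (-0.42 ± 0.11, adjusted p = 0.0183). The call of Tle6 held in 12 of 24 alternatives and was lost without any 1 array other than basal shROR2 replicate 1 or 2, with median scaling, with no filter on dim probes and with the slide as a block (adjusted p up to 0.15). The calls of Bcl9l and Tle5 held in 19 of 24 each. Bcl9l lost its call without any 1 luminal shLUC array or basal shLUC replicate 1 or 2 (adjusted p up to 0.0573), and Tle5 without luminal shLUC replicate 2 or 3 or any 1 basal shLUC array (adjusted p up to 0.0717). Sox17, which is also an endothelial gene, was at least 5.58-fold and at least 2.13-fold higher. It was detected on no luminal array and passed the filter only through basal arrays.

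**Figure D3:**
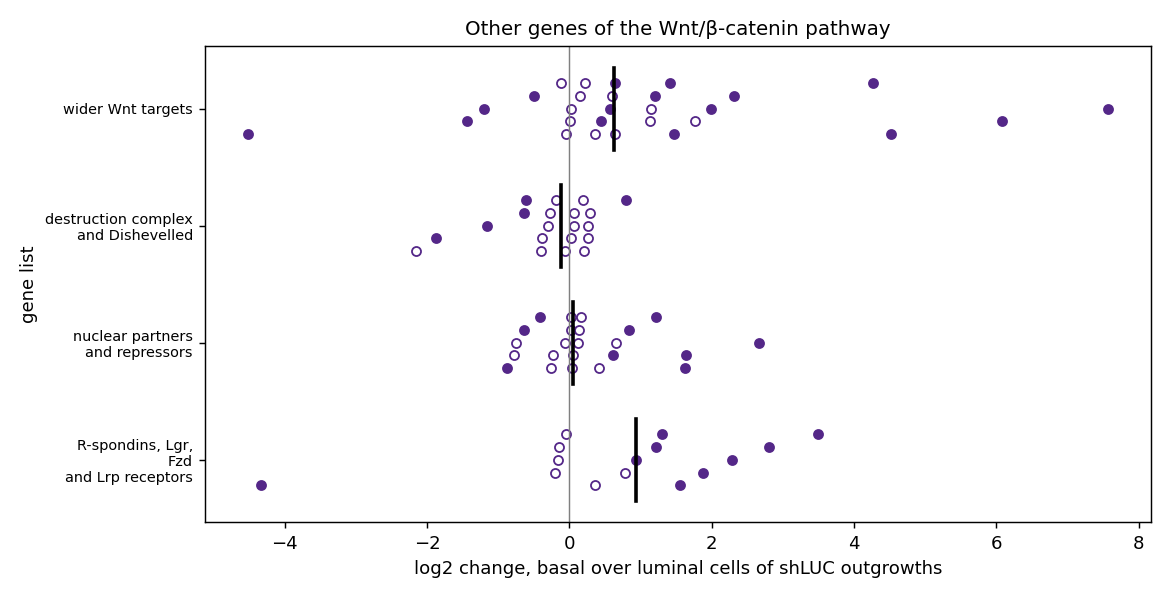
Log2 change of basal over luminal cells of shLUC outgrowths (3 arrays each) for the tested genes of the 4 pathway lists. Each point is 1 gene, filled where the adjusted p was under 0.05, and the black bar is the median of the list. The medians are 0.62 for the wider targets, -0.12 for the destruction complex, 0.04 for the nuclear partners and 0.94 for the receptors. They include Wif1, Lgr5, Dact1, Ccn4, Fzd9 and Sox17, which passed the filter only through basal arrays and whose sizes are not measured.

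The hairpin against Ror2 was then compared with the control hairpin within each layer, the question the design set out to answer. In basal cells limma called none of the 8 genes, where 0.948% of features (279) were called, and 1 of the 8, Axin2, had an unadjusted p under 0.05. In luminal cells none was called, where 0.0034% of features (1) were called, and Tcf7l1 was the 1 gene with an unadjusted p under 0.05. Of the basal calls 110 were higher (0.374% of features) and 169 lower (0.574%), a split of 105 and 91 when arrays were scaled to their median. The basal count was 877 without basal shROR2 replicate 1, within 1.5 times of 279 without replicate 2 or 3 of that group, and 21 to 93 without any 1 of the other 8 arrays.

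Axin2 had the largest basal change of the 8 genes. Its signals of 36.1, 43.6 and 23.4 in basal shROR2 all exceeded the 10.1, 22.4 and 10.0 in basal shLUC, with 23.4 and 22.4 nearly touching. The log2 change was 1.42 ± 0.53 (adjusted p = 0.245), within the slides 1.56 and 1.15, and no alternative of 23 gave a call (adjusted p 0.0607 to 0.565). Of the 3 basal shLUC arrays 1 was well above background, so the size of this change is not measured. The weaker Axin2 probe overlapped between the hairpins, with a difference of 0.63 (exact permutation p = 0.4). In luminal cells Axin2 was dim for both hairpins. The difference of its hairpin change between the layers was not called (adjusted p = 0.707).

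The signals of Nkd1 overlapped between the basal groups on both probes. Once scaled to the 75th percentile of each array they did not, with changes of 0.45 ± 0.30 (adjusted p = 0.515) on the stronger and 0.81 ± 0.50 (adjusted p = 0.473) on the weaker one. The strongest Tcf7l2 probe likewise overlapped as a signal and not once scaled (0.19 ± 0.11, adjusted p = 0.455), and its middle probe gave 0.65 ± 0.30 (adjusted p = 0.343) with overlap. The second Tcf7 probe was the single passing probe whose basal shROR2 signals, 86.8, 84.1 and 82.3, all lay below those of basal shLUC, 94.8, 132 and 132 (-0.41 ± 0.20, adjusted p = 0.375), while the stronger Tcf7 probe overlapped (-0.38 ± 0.21, adjusted p = 0.429). Scaled groups that do not overlap were found for 18.5% of all features in this comparison. Tcf7l1 (-0.03 ± 0.17), Notum (-0.10 ± 0.12) and Znrf3 (0.52 ± 0.44) overlapped between the hairpins, as did the dim Sp5 (-0.58, exact permutation p = 0.6).

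Rnf43 stood apart in how its value depended on 1 array. With all arrays the basal change was -0.46 ± 0.25 (adjusted p = 0.403), with signals of 101, 48.1 and 54.9 in basal shROR2 against 96.1, 102 and 84.6 in basal shLUC. Without basal shROR2 replicate 1 it was -0.79 ± 0.13 (adjusted p = 0.0268, range over 24 alternatives 0.0268 to 0.635), the single alternative that called it. That array differed from the other two of its group in several of the genes, by log2 differences of 0.97 for Rnf43, 1.22 for Znrf3, -0.61 for the stronger Tcf7 probe and -1.21 for the middle Tcf7l2 probe. It was also the single basal shROR2 array on which Sp5 and Ror2 were well above background, and the single one on which the weaker Axin2 probe was not. Without it, the changes against basal shLUC were 1.36 for Axin2, 0.57 for Nkd1, 0.11 for Znrf3 and -0.18 for Tcf7.

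In luminal cells Tcf7l1 gave 55.7 and 47.8 in shROR2 against 65.5, 87.6 and 67.2 in shLUC, a change of -0.53 ± 0.19 (adjusted p = 0.757) without overlap. Notum gave 636 and 656 in shROR2 against 672, 703 and 716 in shLUC, again without overlap (-0.14 ± 0.13, adjusted p = 1). A lack of overlap occurred in 29% of features here. The other fitted genes overlapped, with changes between -0.27 for Tcf7 and 0.23 for Znrf3. The difference of the hairpin change between the layers was called for 0% of features (0 of 29429, with 2443 at an unadjusted p under 0.05), and none of the 8 genes had an unadjusted p under 0.05 there. Averaged over the layers, 0.445% of features (131) were called (0.272% higher, 0.173% lower) and none of the 8 genes, the nearest being Tcf7l1 at -0.28 ± 0.13 (adjusted p = 0.439).

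**Figure D4:**
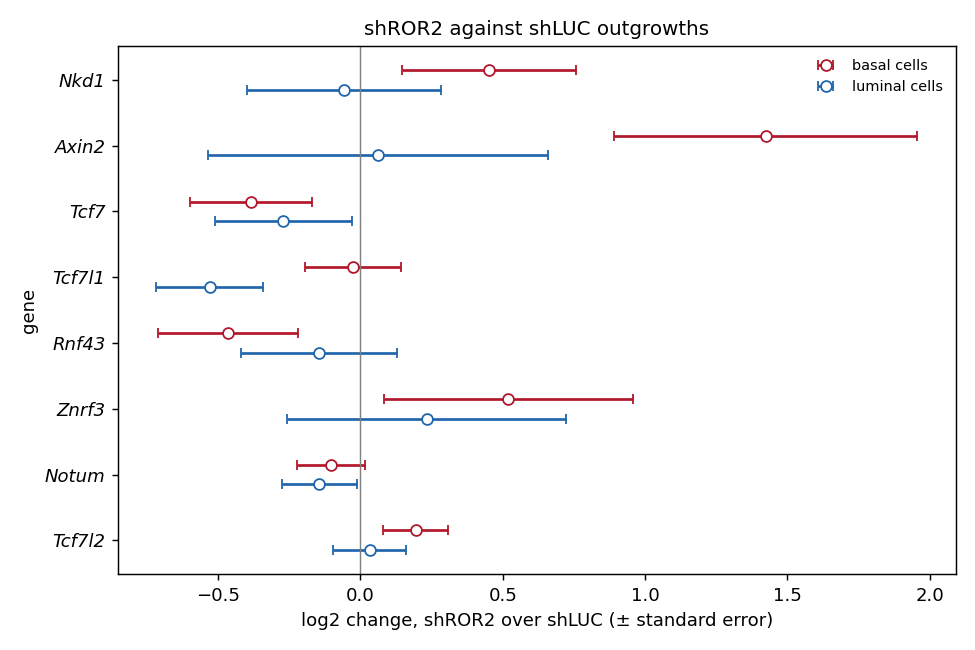
Log2 change of shROR2 over shLUC, with its standard error, for the 8 fitted genes in basal (3 and 3 arrays) and luminal cells (2 and 3). Open points did not pass an adjusted p of 0.05, and all are open. Axin2 in basal cells, at 1.42, lies farthest from 0, but 1 of 3 basal shLUC arrays was well above background, so its size is not measured. The luminal points of Axin2 and Nkd1 rest on signals not well above background.

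Across the 4 other pathway lists, the hairpin comparisons called 2 genes, Tle4 in basal cells, where 0.948% of all features were called, and Procr in the average over the layers, where 0.445% were. Counts this small are not read as particular to the lists. Tle4, a Groucho corepressor of TCF proteins, gave 139, 148 and 116 in basal shROR2 against 66.7, 70.5 and 65.5 in basal shLUC, a change of 1.07 ± 0.18 (adjusted p = 0.0389). In luminal cells it gave 49.1 and 44.8 in shROR2 against 45.3, 27.9 and 37.0 in shLUC, with overlap. The basal call held in 11 of 24 alternatives (adjusted p 0.00526 to 0.186) and was lost without any 1 of the arrays luminal shLUC replicate 3, luminal shROR2 replicate 1 or 2, basal shLUC replicate 1, 2 or 3, or basal shROR2 replicate 2 (adjusted p 0.0594 to 0.134). Procr, the protein C receptor, a Wnt-responsive gene of mammary stem cells that endothelial cells also carry, gave 859, 1277 and 1390 in basal shROR2 against 637.5, 630 and 752 in basal shLUC, and 260.2 and 254 in luminal shROR2 against 135, 128 and 124 in luminal shLUC. Its groups did not overlap in either layer, and the average change of 0.91 ± 0.15 passed (adjusted p = 0.0444), holding in 9 of 23 alternatives (adjusted p 0.00606 to 0.169). It was lost without any 1 of the 11 arrays other than basal shROR2 replicate 1.

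Some markers of other cells were higher in shROR2 outgrowths as well. Between the hairpins, 0.948% of all features were called in basal and 0.0034% in luminal cells. No marker was called in luminal cells. None of the 7 fibroblast, 5 T cell and 4 pericyte markers tested was called in basal cells either. In basal cells 2 of 8 endothelial markers were called, Plvap (1.35 ± 0.24, adjusted p = 0.0436) and Emcn (1.502 ± 0.28, adjusted p = 0.0492), with the sums given above. Of 8 other leukocyte markers 2 of 7 tested were called in basal cells, Cd74 (1.27 ± 0.13, adjusted p = 0.00968) and H2-Ab1 (1.12 ± 0.13, adjusted p = 0.0126), with sums of 10210 to 11300 in basal shROR2 against 6854 to 7245 in basal shLUC, and of 12400 to 12730 in luminal shROR2 against 9839 to 9989 in luminal shLUC. Of 5 adipocyte markers 1 of 3 tested was called in basal cells, Fabp4 (1.02 ± 0.14, adjusted p = 0.0215), and their sums were 5182 to 6372 in basal shROR2 against 2649 to 2999 in basal shLUC, and 1292 to 1508 in luminal shROR2 against 652.8 to 831.2 in luminal shLUC, with Lep above background on no array. In a fit of only the groups compared, 0 features were called in basal cells, so these marker calls were lost there. Without basal shLUC replicate 1, 21 features were called in basal cells, against 279 with all arrays. The part of other cell types in the Axin2, Tle4 and Procr values was not tested.

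Over the 4 groups, the order of mean scaled log2 levels differed between the genes. The stronger Axin2 probe ran from basal shROR2 over basal shLUC to luminal shROR2 and luminal shLUC, with the basal groups separate and the luminal groups overlapping. On that probe 1 of 3 basal shLUC arrays and no luminal array was well above background. Its basal hairpin change was not called by limma (adjusted p = 0.245), and the weaker Axin2 probe overlapped between the basal groups. Nkd1 had the basal groups in the same order and its luminal groups overlapped. Tcf7, Tcf7l1, Notum and Rnf43 were highest in basal shLUC, next in basal shROR2, and overlapped between these neighbours. Luminal shLUC stood above luminal shROR2 for those 4 genes, without overlap for Tcf7l1 and Notum. Such a lack of overlap was found for 18.5% of all features between the basal groups and for 29% between the luminal groups. The strongest Tcf7l2 probe had luminal shROR2 and luminal shLUC first and basal shLUC last, whereas its middle probe had basal shROR2 first and basal shLUC last.

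The profiles most like each gene were named by the smallest root mean square difference of centred log2 signals over the 11 arrays, where replicates of 1 group share much of the variation. Tcf7 was closest to Frmd4a (0.14), Hspg2 (0.16) and Tmem47 (0.17), beside an own standard deviation of 1.42. Nkd1 was closest to Rasa3 (0.34), Brinp3 (0.35) and Abat (0.35), with an own standard deviation of 2.54. Axin2 was closest to Lrrn4cl (0.45), Egfl7 (0.49) and Dact3 (0.52), with 1.44. Tcf7l1 was closest to Bend3 (0.15) and Ppan (0.16), with 0.74, and Rnf43 to Slc25a13 (0.13), Ipo5 (0.17) and Gtpbp4 (0.17), with 0.56.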

How the data were processed

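Per the labels' protocols, RNA of the 11 sorted samples was isolated (PicoPure), amplified (NuGEN Ovation Pico WTA) and Cy3-labelled for Agilent arrays read in a single colour. The deposited scanner files hold intensity values that Agilent Feature Extraction 11.0.1.1 background-subtracted on each array, per the file headers. The authors' table of normalized intensity values has column medians of 88.8 to 89.3 and correlates at 0.996 to 0.998 (log2) with the raw signal of the same array. It is on a linear scale and not centred, normalized by a method not given in the sources used here. Probes were named through RefSeq accessions and a GRCm38.p6 gene table, which found a symbol for 26582 of 55681 probes.

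Processed signals of a probe's spots were averaged without outlier spots (110 to 163 per array, with 0 saturated), log2-transformed and reduced by the array's 75th percentile (112.3 to 131.4). Probes well above background on at least 3 of 11 arrays were kept (33628), 17 of them with missing values were left out, and for the 3490 genes with several probes the one with the highest mean was used, which gave 29429 features. A model with 4 group means was fitted with limma 3.58.1 in R 4.3.3 (lmFit and eBayes), with two-sided p-values adjusted by Benjamini and Hochberg's method over all features. Where every array of a group was dim, "at least N-fold" is the mean scaled log2 signal of the bright group against the higher, per array, of the lowest well-above-background signal and the dim probe's own signal. Dim genes were compared by exact permutation of arrays. On simulated data of 29429 features, 50 features were changed per size. The basal hairpin comparison recovered 34% of those changed by 1 on the log2 scale and 72% of those changed by 2, with 8 false calls. These shares are not read as the power for dim genes such as Axin2. Genes of the lists were named by a rule, up to 4 called genes with the largest change per direction and list in basal against luminal shLUC cells, and up to 6 genes called in a hairpin comparison.

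The arrays lay on 2 slides, each holding samples of every group, so the slide was tried as a block. Alternatives covered scaling, background correction, the authors' table, the filter, the slide and replicate blocks, probe summaries, weights and leaving out each array. The normexp alternative used the raw median signals. The members and lists were chosen with earlier results of these data known. The p-values measure the spread between these samples, and the number of arrays limits the precision. Sequences are RefSeq's.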

Additional observations from a re-analysis of the deposited data

How the results depend on the processing

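The calls of Nkd1, Tcf7 and Tcf7l1 in both basal to luminal comparisons, and of Rnf43 in shLUC outgrowths, held in all 24 alternatives tried. In the authors' table the change of Nkd1 was 1.40 in shROR2 and 1.17 in shLUC outgrowths, that of Tcf7 1.78 and 1.91, and that of Tcf7l1 0.93 and 0.72, all smaller than from the processed signals. The number of genes called among the 8 in shLUC outgrowths was 7 with array weights (6 higher and 1 lower), against 4. With these weights 38.6% of all features were called, against 26.9% in the main fit. Leaving out 1 array gave 4 to 5 called genes in shLUC outgrowths, 3 to 5 in shROR2 outgrowths and 0 to 1 for the basal hairpin comparison. Since Nkd1 and Axin2 passed the filter only through basal arrays, nothing is read from the counts between the layers. Leaving out 1 array gave 3770 to 7539 called features for basal against luminal cells in shROR2 and 5829 to 9542 in shLUC outgrowths, 21 to 877 for the hairpin in basal cells, 0 to 10 in luminal cells, 0 to 8 for the difference between the layers and 0 to 299 for the average.

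A fit of only the groups compared called 2822 features for basal against luminal cells in shROR2 outgrowths and 0 for the hairpin in either layer. The hairpin count in basal cells (279) was 687 with normexp, 541 from the authors' table, 130 without a filter, 129 with the slide as a block, 44 with array weights and 674 with trended robust variances. The luminal count (1) was 0 with median scaling, the slide as a block or the mean over probes, 5 with quantile normalization or the stricter filter of 6 arrays, 23 with normexp, 22 from the authors' table, 3 without a filter, 62 with array weights and 29 with trended robust variances. The count for the difference (0) was 1 with median scaling, 2 with quantile normalization, 7 with normexp and from the authors' table, and 23 with trended robust variances. The average count (131, of which 80 were higher and 51 lower) was 302 with normexp, 289 from the authors' table, 56 without a filter, 54 with the slide as a block and 294 with trended robust variances, and median scaling split it into 78 higher and 31 lower.

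With the replicate block the count was 37 for the hairpin in basal cells, 0 in luminal cells and 0 for the average. Axin2 was then called between the layers of shLUC outgrowths (adjusted p = 0.00543). Same-numbered arrays of different groups correlated in their deviations at -0.04 to 0.04. Deviations from means of 2 or 3 arrays constrain each other, so these values cannot decide whether the numbers pair samples. The labels state no pairing, and the main fit used none. In every group replicate 1 lay on slide 1 and replicate 2 on slide 2.

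The changes that turned sign were never called, and the ranges are over the fits without 1 array. For the luminal hairpin comparison they were Axin2 (-0.16 with the replicate block, range -0.58 to 0.70), Nkd1 (0.013 with normexp, 0.034 in the authors' table, range -0.36 to 0.25), Tcf7l2 (-0.0091 with quantile normalization, -0.029 in the authors' table, range -0.030 to 0.089) and Znrf3 (range -0.21 to 0.67). For the basal hairpin comparison it was Tcf7l1 (0.047 with median scaling, range -0.12 to 0.11). Tcf7l2 between layers in shROR2 outgrowths was 0.11 with the mean over probes. For the difference between the layers the ranges were -0.33 to 0.091 for Tcf7, -0.028 to 0.12 for Notum and -0.15 to 0.73 for Znrf3. The causes were not tested. Levels near background limit what can be said of Axin2, Sp5, Lef1 and Ror2.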
